A study of Mus musculus with 3 samples.

Results

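The genes described here encode the tumour necrosis factor (TNF) family signals by which lymphoid cells act on thymic epithelial cells (TECs). The list was set by gene symbol and holds 8 of the 32245 genes in the count matrix. It comprises 4 ligand genes, Tnfsf11 (RANK ligand), Cd40lg (CD40 ligand), Lta (lymphotoxin α) and Ltb (lymphotoxin β), 3 signalling receptor genes, Tnfrsf11a (RANK), Cd40 and Ltbr (lymphotoxin β receptor), and 1 decoy receptor gene, Tnfrsf11b (osteoprotegerin). All 8 had at least 1 UMI (unique molecular identifier, the tag that marks a captured transcript) in the analysed cells, where 22942 genes did. Thymic cells came from wild-type, untreated mice, of the C57BL/6J strain per the study's methods, and were analysed on culture day 13. The organoid reaggregate fetal thymic organ culture (ORFTOC) pool was made from TECs of embryonic thymi that had been sorted and grown as organoids. These TECs were dissociated and reaggregated with fetal thymus cells depleted of EpCAM-positive cells and with mouse embryonic fibroblasts (MEFs). The fetal thymic organ culture (FTOC) pool was made from intact fetal lobes kept on the same type of membrane and in the same medium. Lobes and depleted cells were of an earlier embryonic age than the TECs that founded the organoids. The mesenchyme of ORFTOC includes the added MEFs, and its lymphoid cells derive from the depleted suspension. The study's methods call the MEFs wild-type and give no strain for them. The cells of 2 cultures were combined per pool, then labelled with an antibody that carries an oligonucleotide barcode (hashtag), and both pools were run in 1 lane. Each pool is therefore 1 sample. No test between pools was possible. All intervals below are 95% intervals that cover counting error only, with every UMI taken as independent. They say nothing of the spread between cultures or between cells.

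As background, RANK, CD40 and the lymphotoxin β receptor signal through TRAF adaptors to NF-κB, and their loss impairs the medulla of the thymus. RANK ligand of fetal lymphoid tissue inducer cells and invariant γδ T cells is known to act on medullary TECs (mTECs) of the embryo, before positively selected thymocytes add RANK ligand and CD40 ligand. Lymphotoxin β is anchored at the cell surface and binds the lymphotoxin β receptor as a heterotrimer with lymphotoxin α, while osteoprotegerin is a secreted decoy that binds RANK ligand.

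A total of 8392 cells were kept, 4251 of ORFTOC with a median of 8041 UMIs per cell and 4141 of FTOC with a median of 4921. Epithelial cells numbered 1227 and 962, immune cells 2794 and 3116, and mesenchymal cells 230 and 63, in ORFTOC and FTOC respectively. The 8 genes and 63 related genes were left out of the clustering, so that their levels did not form the clusters. A cluster was called "X-like" from its markers. Levels are UMIs of a gene per 1000000 UMIs of the cells considered (CPM), and they were compared between groups of cells for 1 gene and not between genes. Sex-linked genes also differed between the pools. Xist, made from the inactive X chromosome, was at 207 CPM in immune cells of ORFTOC and 547 CPM in those of FTOC, and the Y-linked Eif2s3y had 936 UMIs in the former and 4 in the latter.

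The ligand genes lie on chromosome 14 (Tnfsf11, GRCm38.p6 chr14:78277446-78308043), on chromosome X (Cd40lg, chrX:57212143-57224042) and, as near neighbours, on chromosome 17 (Ltb, chr17:35194507-35196305, and Lta, chr17:35203165-35205578). The receptor genes lie on chromosomes 1 (Tnfrsf11a, chr1:105780673-105849444), 2 (Cd40, chr2:165055614-165071654), 6 (Ltbr, chr6:125306571-125313885) and 15 (Tnfrsf11b, chr15:54250619-54278484). The promoters of Tnfsf11 and Ltb are shown because both genes were highest in the same class of cells, as described below. Lta was highest in that class too, but its window is not printed. Of the 250 bases of that window, 227 lie within the annotated gene. They are the 250 bases before the annotated start in RefSeq (GRCm38.p6), 5′ to 3′ on the strand of the gene. Capitals mark matches on either strand to the general letters of an NF-κB site, GGG and CC with 5 bases of any kind between them, and adjoining matches overlap.

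Tnfsf11, chr14:78308044-78308293, minus strand: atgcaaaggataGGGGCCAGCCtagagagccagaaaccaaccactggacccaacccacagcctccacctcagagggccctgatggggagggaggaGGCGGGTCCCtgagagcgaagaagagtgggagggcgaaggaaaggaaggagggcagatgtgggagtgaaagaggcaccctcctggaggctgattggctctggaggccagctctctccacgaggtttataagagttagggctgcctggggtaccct

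Ltb, chr17:35194257-35194506, plus strand: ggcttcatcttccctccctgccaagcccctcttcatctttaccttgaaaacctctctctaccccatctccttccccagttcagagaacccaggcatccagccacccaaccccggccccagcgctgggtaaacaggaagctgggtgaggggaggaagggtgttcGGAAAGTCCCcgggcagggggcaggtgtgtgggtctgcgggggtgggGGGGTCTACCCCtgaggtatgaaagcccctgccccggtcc

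The Tnfsf11 window held 2 such matches and that of Ltb 5, of which 4 overlap near the start and lie on both strands, counted once per strand and position. Of all 32851 promoter windows of this length, 45.8% held at least 1 match. Neither window held AGGTCA on either strand, the half-site that ROR nuclear receptors bind, which 14.02% of all windows held. Promoter sequences were found for 5 of the 8 genes, and a match in letters is a description and not a binding site.

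The ligands were counted first. Tnfsf11 was highest in ILC3-like cells, which carry markers of type 3 innate lymphoid cells, the group that includes lymphoid tissue inducer cells. It was at 206 CPM (189 to 223) in 580 ILC3-like cells, with 185 CPM in ORFTOC and 271 CPM in FTOC, and 47.2% of these cells had a UMI. The γδ T-like cells, led by Il17a, Cd163l1 and Blk, followed with 113 CPM (94.9 to 133), 59.4 CPM in 66 cells of ORFTOC and 140.1 CPM in 113 cells of FTOC. ILC2-like cells came next with 50.5 CPM (39.7 to 63.4), from 53.0 CPM in 228 cells of ORFTOC and 27.9 CPM in 18 cells of FTOC. Each of these 3 classes differed from the next beyond counting error. Below them came unnamed immune cluster 6, led by Xcl1 and Nkg7 and rich in cell cycle genes, at 14.8 CPM, and the cytotoxic or NK-like cells at 13.4 CPM, whose difference lay within counting error. Cycling thymocyte-like cells (7.36 CPM) were below these, and neighbours from there through double-positive-like (6.74 CPM) and mature single-positive-like cells (6.12 CPM) did not differ beyond counting error.

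For a background share, cTEC-like cells, cortical epithelial cells with a median of 14825 UMIs, had a Tnfsf11 UMI in 0 of 279 cells, which allows up to 1.08%, and macrophage or monocyte-like cells in 0.562%. ILC3-like cells had a median of 4718 UMIs. The free RNA in barcodes of 10 to 100 UMIs held Tnfsf11 at 11.6 CPM, a level of the size seen in the lower classes. Epithelial markers in immune cells put free RNA at 6.20% of the UMIs of immune cells in ORFTOC and 9.70% in FTOC. Unnamed immune cluster 15, which held epithelial genes (below), gave 1138 of the 2651 marker UMIs in ORFTOC and 2200 of 3146 in FTOC. These shares therefore partly reflect that cluster. The part of free RNA in the levels of the lower classes was not tested.

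Lta was more narrowly distributed. ILC3-like cells held it at 895 CPM (859.9 to 930.2), 901 CPM in ORFTOC and 875 CPM in FTOC, and 60.9% of them had a UMI. The γδ T-like cells were at 78.9 CPM (64.1 to 96.2), with 45.2 CPM in ORFTOC and 96.3 CPM in FTOC. From ILC2-like cells (25.3 CPM) through mature single-positive-like (19.9 CPM), selected-like (15.9 CPM) and cluster 6 cells (15.4 CPM), neighbours did not differ beyond counting error. ILC3-like cells held 85.1% of the immune UMIs of Lta, although they were 9.81% of immune cells. No UMI was found in 279 cTEC-like or in 178 macrophage or monocyte-like cells.

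Ltb was found across the lymphoid classes. Its order ran from ILC3-like cells at 1853 CPM (1803 to 1904) through γδ T-like (1221 CPM), mature single-positive-like (1133 CPM), ILC2-like (954 CPM), selected-like (738 CPM) and cytotoxic or NK-like cells (727 CPM) to double-positive-like cells (472 CPM), cluster 6 (442 CPM) and cycling thymocyte-like cells (107 CPM). Each of these steps was beyond counting error except that from selected-like to cytotoxic or NK-like cells. The unnamed cluster 15, led by Pth and Chga, lay between cluster 6 and the cycling cells at 178 CPM. It stood among the immune clusters but also held the epithelial genes Epcam at 859 CPM, Krt8 at 821 CPM and Krt18 at 1207 CPM, and 176 UMIs of Ltb, 10 of Lta and 5 of Tnfsf11. Within the sequence of thymocyte classes the level was lowest in cycling, higher in double-positive-like, higher again in selected-like (thymocytes with genes of positive selection) and highest in mature single-positive-like cells. Macrophage or monocyte-like cells had 52.1 CPM, and free RNA held Ltb at 138 CPM.

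The balance of both lymphotoxin genes set the ILC3-like class apart. It held 48.3 Lta UMIs per 100 Ltb UMIs, against 6.46 in γδ T-like cells, 3.48 in cluster 6, 2.65 in ILC2-like, 2.07 in cytotoxic or NK-like, 2.01 in double-positive-like and 1.76 in mature single-positive-like cells. Free RNA held 15.7.

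Cd40lg was the rarest ligand, with 96 UMIs in all cells. Mature single-positive-like cells held 59 of them, at 30.1 CPM (22.9 to 38.8), and 12.2% of these cells had a UMI. When the class was rebuilt with the members kept among the clustering genes, it held 570 cells at 16.4 CPM. The next class, selected-like cells, was at 3.97 CPM from 2 UMIs, and cluster 6 was at 3.90 CPM from 21 UMIs. ILC3-like cells held 0 UMIs in 580 cells, which allows a UMI in up to 0.517% of cells and sets no limit on cells that express the gene, and ILC2-like cells held 0 in 246. Cd40lg was thus not detected at this depth in the class with the highest Tnfsf11, Lta and Ltb levels.

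**Figure D1:**
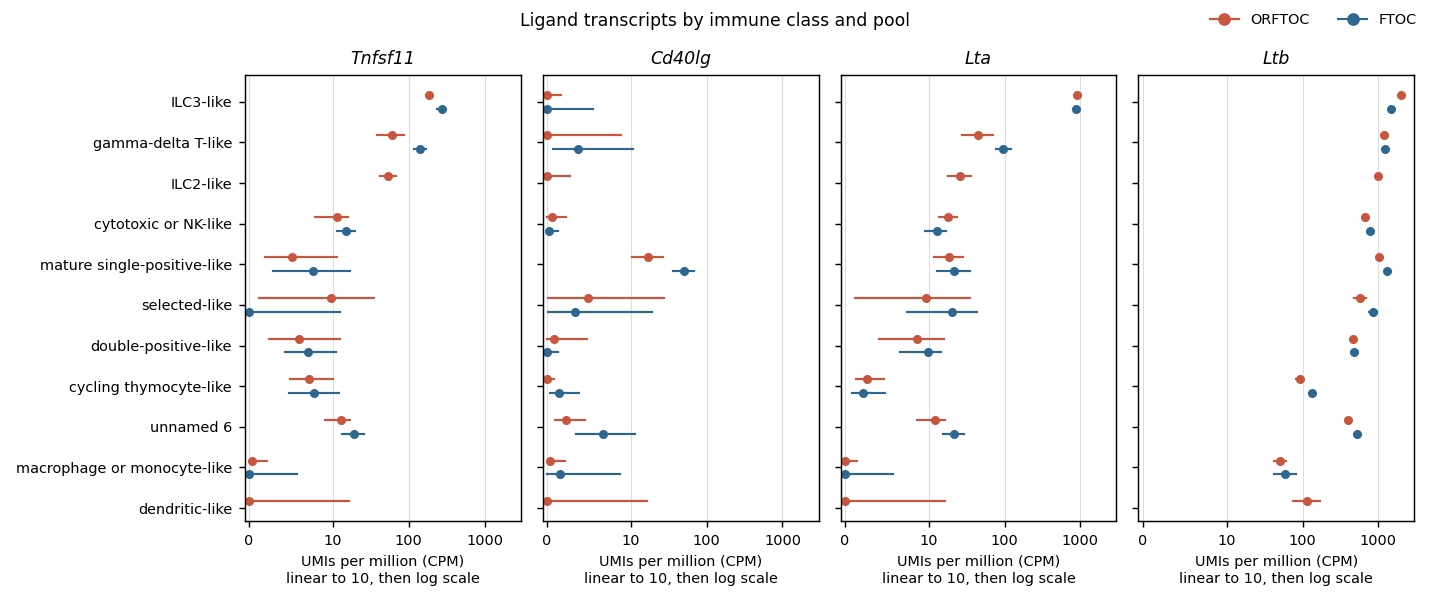
Levels of the 4 ligand genes by immune class, in CPM on an axis that is linear to 10 and logarithmic above. Points are the summed cells of a pool (ORFTOC red, FTOC blue), lines are 95% Poisson intervals, and neither unnamed cluster 15 nor classes with under 20 cells in a pool are drawn; Tnfsf11, Lta and Ltb are highest in ILC3-like cells and Cd40lg in mature single-positive-like cells.

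The immune cells other than macrophage or monocyte-like and dendritic-like cells were also divided by the chains found in the T cell receptor (TCR) library. Cells with neither a TRB nor a TRA chain (1936 cells) held Tnfsf11 at 67.8 CPM, those with TRB alone (2024 cells) at 12.6 CPM and those with both chains (1715 cells) at 9.41 CPM. Lta was at 217 CPM without chains, 8.60 CPM with TRB alone and 16.2 CPM with both. Ltb was at 965 CPM without chains, 331 CPM with TRB alone and 576 CPM with both. Cd40lg had the opposite distribution: 81 of its UMIs lay in cells with both chains (8.20 CPM), 8 in cells with TRB alone (0.773 CPM) and 3 in cells with neither.

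The chain status also checked the classes. Of the ILC3-like cells, 18 of 580 had a TRB chain, and their Tnfsf11 level was 237 CPM (161 to 337) against 204 CPM (187 to 222) in those without. Of the γδ T-like cells, 32 had a TRB chain, and they held Tnfsf11 at 124 CPM against 110.1 CPM in the 147 without. Among cytotoxic or NK-like cells, the 467 without TRB had 17.7 CPM (14.0 to 22.0) of Tnfsf11 and the 265 with TRB had 6.26 CPM (3.65 to 10.02). Lta in these groups was 20.1 CPM and 6.63 CPM.

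Within mature single-positive-like cells Cd40lg followed the coreceptors. The 90 cells with UMIs of Cd4 and none of Cd8a or Cd8b1 were at 51.7 CPM (34.3 to 74.7), from 30.6 CPM in ORFTOC and 83.8 CPM in FTOC, and 20 of them had a UMI. The 96 cells with Cd8 genes alone held 3 UMIs, or 5.0 CPM (1.03 to 14.6). Ltb differed less, with 1226 CPM in the former and 1008 CPM in the latter. The 112 cells with UMIs of neither coreceptor held Cd40lg at 30.9 CPM, and the 29 with both at 44.5 CPM. The latter value came from 9 UMIs in 4 cells of FTOC, with 6 in a single cell, and from 0 UMIs in 14 cells of ORFTOC.

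Single ILC3-like cells varied widely in Lta. The tenth of them with the most UMIs (58 cells) held 64.7% of the class's Lta UMIs, with up to 66 in a cell, against 43.3% for Tnfsf11 and 26.9% for Ltb. Both Tnfsf11 and Lta were found in 186 of the 580 cells, where the product of their separate shares gives 167, and Tnfsf11 with its own receptor gene Tnfrsf11a in 79, where the product gives 77.9. Deeper cells show more genes of any kind, which alone can put a joint count above the product, here and below. ILC3-like cells were 2 clusters. The larger, cluster 2 with 546 cells, held Tnfsf11 at 196 CPM and Lta at 906 CPM, and cluster 18 with 34 cells at 552 CPM and 475 CPM.

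Among epithelial cells Tnfrsf11a was highest in Aire mTEC-like cells, the cluster led by Il4i1, Calcb and Aire. This class of 106 cells was at 241 CPM (220 to 263), 246 CPM in ORFTOC and 238 CPM in FTOC, and 83.0% of its cells had a UMI. Ccl21a mTEC-like cells followed at 50.03 CPM (46.2 to 54.1). They were 2 clusters that differed: cluster 1, led by Krt14 and Ccl21a, was at 58.8 CPM (54.1 to 63.7), and cluster 5, led by Lypd1 and Cxcl14, at 17.1 CPM (12.5 to 22.8). The cTEC-like class (31.5 CPM) was next, and the steps from it to ionocyte-like (25.9 CPM) and from there to airway-like cells (25.4 CPM) lay within counting error. The unnamed epithelial cluster 3, led by Aqp3 and Igfbp2, was at 11.3 CPM. As a background, cycling thymocyte-like cells, with a median of 8745 UMIs against 17906.5 in Aire mTEC-like cells, had a Tnfrsf11a UMI in 0.149% of cells.

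Cd40 had a like order, with Aire mTEC-like cells at 213 CPM (194 to 233), 186 CPM in ORFTOC and 230 CPM in FTOC. A UMI was found in 69.8% of them. The cTEC-like class came second at 49.9 CPM (43.5 to 56.9), above Ccl21a mTEC-like cells at 32.2 CPM, and airway-like cells were at 18.2 CPM. Cluster 1 of the Ccl21a mTEC-like class was at 40.3 CPM and cluster 5 at 1.86 CPM, from 5 UMIs in 216 cells. The share of cells with a Cd40 UMI in cycling thymocyte-like cells was 0.149%.

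Tnfrsf11b, the decoy receptor, was found in few classes. Aire mTEC-like cells held it at 122 CPM (107 to 138), with 93.5 CPM in ORFTOC and 139 CPM in FTOC, and 47.2% had a UMI. Airway-like cells, led by the secretory genes Bpifa1 and Reg3g, held it at 22.2 CPM (18.5 to 26.6), 25.3 CPM in ORFTOC and 11.1 CPM in FTOC. Ccl21a mTEC-like cells were at 1.25 CPM, and cTEC-like cells had 1 UMI in 279 cells. The class that was highest for the RANK gene was thus also highest for the gene of the decoy of RANK ligand. Both were found together in 46 of the 106 cells, where the product of the shares gives 41.5.

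Ltbr differed from the other receptors in its order. It was highest in cTEC-like cells, at 160.3 CPM (149 to 173), with 165 CPM in 248 cells of ORFTOC and 124 CPM in 31 cells of FTOC. A UMI was found in 84.2% of them, and in 0 of 669 cycling thymocyte-like cells, which allows up to 0.448%. Ionocyte-like (95.8 CPM), airway-like (94.1 CPM), Ccl21a mTEC-like (87.7 CPM), tuft-like (80.3 CPM) and cluster 3 cells (77.5 CPM) followed, each within counting error of the next. Aire mTEC-like cells were lowest at 52.1 CPM (42.9 to 62.8), below cluster 3 beyond counting error.

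**Figure D2:**
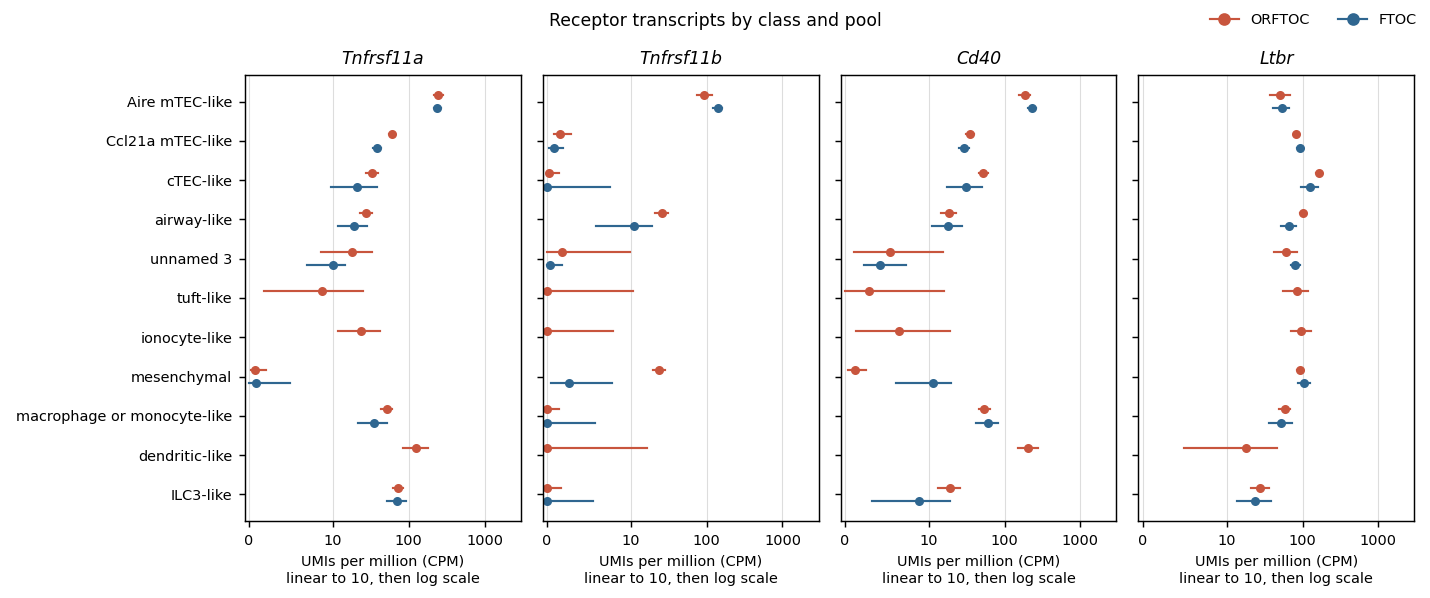
Levels of the 4 receptor genes by epithelial class, in mesenchymal cells and in 3 immune classes, in CPM on an axis that is linear to 10 and logarithmic above. Points are the summed cells of a pool (ORFTOC red, FTOC blue), lines are 95% Poisson intervals, and classes with under 20 cells in a pool are not drawn; among epithelial classes Aire mTEC-like cells are highest for Tnfrsf11a, Tnfrsf11b and Cd40 and cTEC-like cells for Ltbr.

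Single Aire mTEC-like cells held a median of 4 UMIs of Tnfrsf11a and up to 17, and a median of 2 of Cd40 and up to 36. Both genes were found in 70 of the 106 cells, where the product of the shares gives 61.4. In the 949 Ccl21a mTEC-like cells both were found in 135, where the product gives 77.6. These cells share a library, and deeper cells show more genes of any kind.

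The receptor genes were not limited to epithelium. Dendritic-like cells, 29 in all and 25 of them in ORFTOC, held Cd40 at 180 CPM (132 to 240) and Tnfrsf11a at 117 CPM (79.1 to 167). Macrophage or monocyte-like cells held Cd40 at 55.2 CPM, Tnfrsf11a at 47.8 CPM and Ltbr at 57.0 CPM. ILC3-like cells, the main holders of Tnfsf11, held its receptor gene at 71.5 CPM (61.9 to 82.1), 72.2 CPM in ORFTOC and 69.2 CPM in FTOC, and 28.4% of them had a UMI. Double-positive-like cells were near 0 for all 3 signalling receptor genes, with 2 UMIs of Tnfrsf11a, 1 of Cd40 and 8 of Ltbr in 2212 cells. Mesenchymal cells held Ltbr at 93.9 CPM, within the range of the epithelial classes, and Tnfrsf11a at 0.80 CPM.

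The comparison of the pools asked whether reaggregates with organoid TECs hold these signals as intact lobes do. Over all immune cells Tnfsf11 was at 29.97 CPM in ORFTOC and 28.8 CPM in FTOC, a log2 ratio of 0.06 (-0.12 to 0.24). Ltb was at 580.4 CPM and 601 CPM (log2 ratio -0.05, -0.09 to -0.01). Lta was 1.95-fold higher in ORFTOC, with 103 CPM and 52.9 CPM (log2 ratio 0.96, 0.85 to 1.08). Cd40lg was at 1.6 CPM from 33 UMIs in ORFTOC and 3.97 CPM from 62 UMIs in FTOC (log2 ratio -1.31, -1.97 to -0.68). Cd40lg is on the X chromosome, and Xist had a log2 ratio of -1.40 in the same cells. Its part in the Cd40lg value was not tested. With every cell weighted equally, the log2 ratio was 0.73 for Tnfsf11, 0.34 for Ltb, 1.67 for Lta and -0.50 for Cd40lg.

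**Figure D3:**
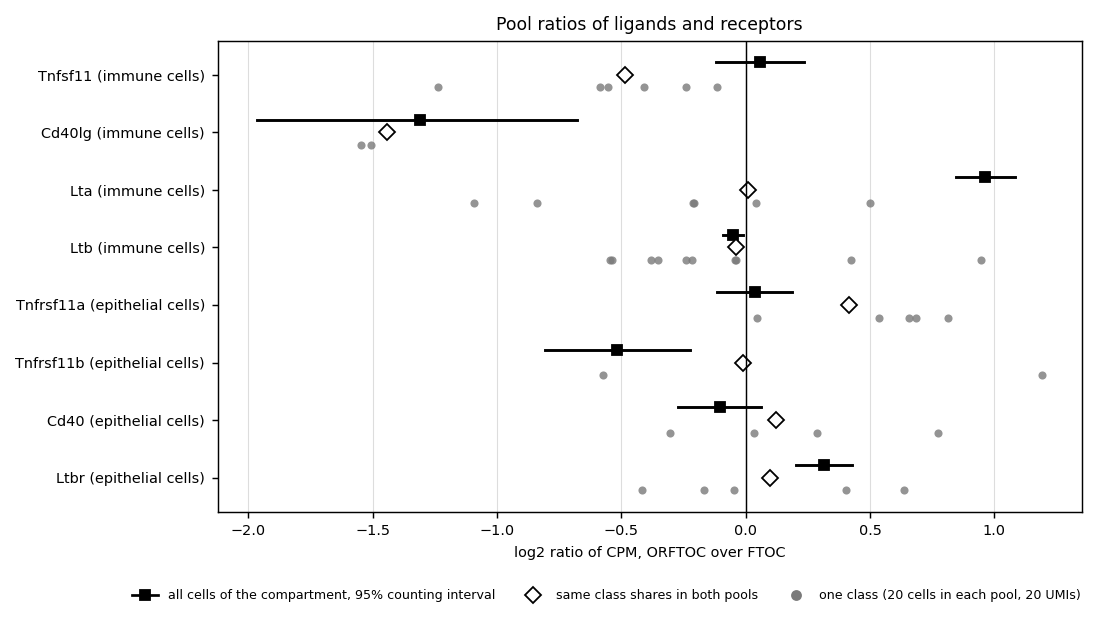
Log2 ratios of CPM between pools, ORFTOC over FTOC, for the ligand genes in immune cells and the receptor genes in epithelial cells. Squares are all cells of the compartment with 95% counting intervals. Open diamonds are ratios of levels averaged over classes, with the class shares of both pools together used for each pool, so classes with high levels weigh most. Grey points are single classes with at least 20 cells in each pool and 20 UMIs. Lta lies at 0.96 over all immune cells and at 0.0090 with equal class shares.

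The classes made up different shares of the pools, and the sums above hold that difference. ILC3-like cells were 16.2% of immune cells in ORFTOC and 4.04% in FTOC, and ILC2-like cells 8.16% and 0.578%. Within ILC3-like cells Lta was alike between pools within counting error (log2 ratio 0.04, -0.09 to 0.18), Tnfsf11 was lower in ORFTOC (-0.55, -0.81 to -0.29) and Ltb higher (0.42, 0.32 to 0.52). Cluster 2 alone had -0.47 for Tnfsf11, 0.42 for Ltb and 0.01 for Lta. In γδ T-like cells Tnfsf11 (-1.24, -1.92 to -0.60) and Lta (-1.09, -1.90 to -0.36) were lower in ORFTOC, while the interval of Ltb held 0 (-0.04, -0.19 to 0.12). With the class shares of both pools taken as equal, the log2 ratio over all immune cells was -0.49 for Tnfsf11 and 0.0090 for Lta.

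Mature single-positive-like cells held Cd40lg at 17.0 CPM (20 UMIs) in ORFTOC and 49.7 CPM (39 UMIs) in FTOC, a log2 ratio of -1.55 (-2.40 to -0.73). Cluster 6 gave a like value from fewer UMIs (-1.51, -2.98 to -0.13). Ltb was lower in ORFTOC in mature single-positive-like (-0.35), selected-like (-0.54), cycling thymocyte-like (-0.55) and cluster 6 cells (-0.38), each with an interval below 0. In double-positive-like cells the interval held 0 (-0.04, -0.19 to 0.10). In cytotoxic or NK-like cells the value was -0.22, from -0.36 in cluster 5, 149 cells of ORFTOC and 281 of FTOC, and 0.11 (-0.02 to 0.24) in cluster 9, 157 and 145 cells.

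The sources of each ligand followed. Of the Tnfsf11 UMIs in immune cells of ORFTOC, ILC3-like cells held 63.8%, ILC2-like cells 11.3% and γδ T-like cells 4.05%. In FTOC the shares were 40.9% for ILC3-like and 25.6% for γδ T-like cells. Lta came from ILC3-like cells for 90.3% in ORFTOC and 71.8% in FTOC. Ltb came from them for 35.2% in ORFTOC and 10.6% in FTOC, where cytotoxic or NK-like cells held 33.6% and double-positive-like cells 14.3%. Cd40lg came from mature single-positive-like cells for 60.6% and 62.9%.

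Over all epithelial cells Tnfrsf11a was at 51.02 CPM in ORFTOC and 49.7 CPM in FTOC (log2 ratio 0.04, -0.11 to 0.19), and Cd40 at 39.5 CPM and 42.5 CPM (-0.10, -0.27 to 0.06). Ltbr was somewhat higher in ORFTOC, with 105 CPM and 84.2 CPM (0.31, 0.20 to 0.43), and Tnfrsf11b lower, with 11.4 CPM and 16.3 CPM (-0.52, -0.81 to -0.23). All 4 values lay within 2-fold, the limit used for counts below. The value of Tnfrsf11b was reversed, at 2.05, when cells with any UMI of the other compartments' markers were dropped, a step that left 809 of 1227 epithelial cells of ORFTOC and 669 of 962 of FTOC. The same step gave 0.64 for Cd40. Aire mTEC-like cells were the class highest for Tnfrsf11b and Cd40. Of them, 10 of 44 in ORFTOC and 10 of 62 in FTOC lacked any UMI of the 6 immune markers given below. The step thus took out most of this class. Equal weights of cells gave 0.042 for Tnfrsf11b.

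Within classes the picture differed by gene. Tnfrsf11a was alike within counting error in Aire mTEC-like cells (0.05, -0.22 to 0.31) and was higher in ORFTOC in Ccl21a mTEC-like cells (0.66, 0.42 to 0.90), of which cluster 1 gave 0.41 (0.16 to 0.66). Cd40 was lower in ORFTOC in Aire mTEC-like cells (-0.31, -0.60 to -0.02) and higher in cTEC-like cells (0.77, 0.02 to 1.63), where FTOC held 15 UMIs in 31 cells. Among Aire mTEC-like cells of FTOC, a single cell held 36 of the 300 Cd40 UMIs, and 6 of 62 cells held 42.7%. The interval does not cover such a spread between cells. Tnfrsf11b was lower in Aire mTEC-like cells (-0.57, -0.98 to -0.18) and higher in airway-like cells (1.19, 0.36 to 2.15). Ltbr was higher in airway-like (0.64, 0.28 to 1.01) and cTEC-like cells (0.40, 0.02 to 0.81), lower in cluster 1 of the Ccl21a mTEC-like class (-0.22, -0.40 to -0.03), at -0.42 (-0.98 to 0.11) in cluster 3, and its interval held 0 in Aire mTEC-like cells (-0.05, -0.64 to 0.53).

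Aire mTEC-like cells were 3.59% of epithelial cells in ORFTOC and 6.44% in FTOC. They held 22.5% of the epithelial Tnfrsf11a UMIs in ORFTOC and 50.8% in FTOC, and 21.9% and 57.4% of those of Cd40. For Tnfrsf11b they held 38.3% in ORFTOC, where airway-like cells held 55.1%, and 90.5% in FTOC, where airway-like cells held 6.47%. For Ltbr, cTEC-like cells held 36.3% in ORFTOC and 5.89% in FTOC.

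**Figure D4:**
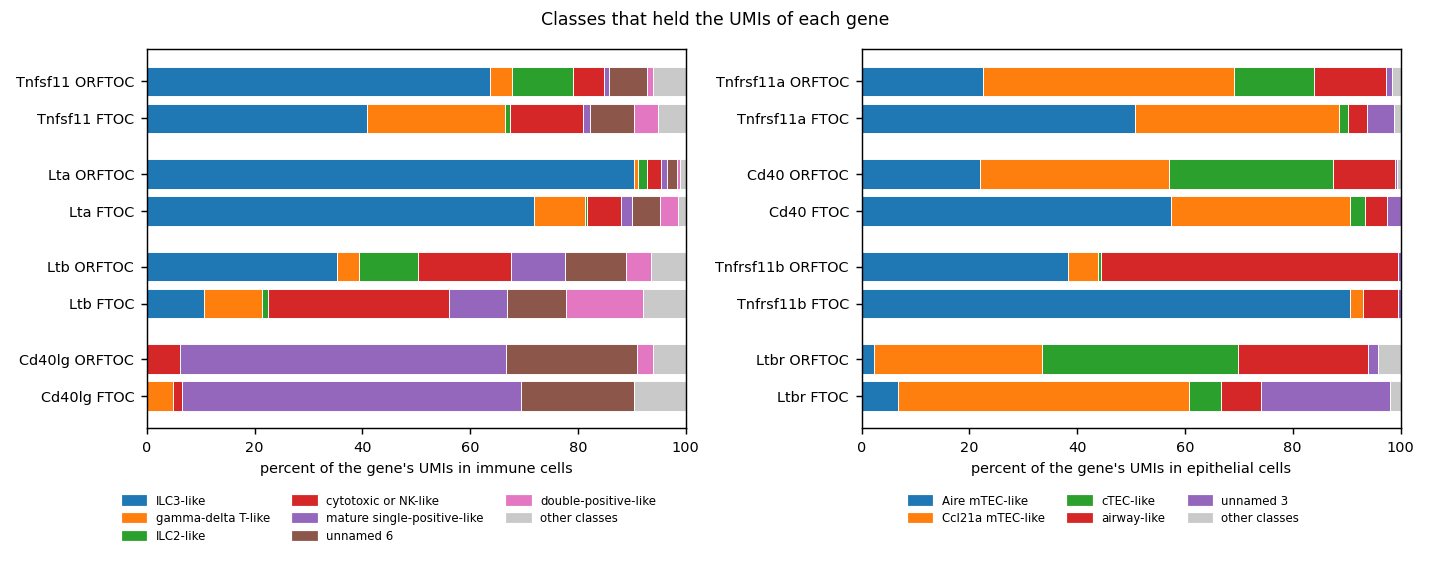
Percent of each gene's UMIs held by each class, with the ligand genes in immune cells on the left and the receptor genes in epithelial cells on the right, 1 bar per gene and pool. ILC3-like cells hold 63.8% of Tnfsf11 in ORFTOC and 40.9% in FTOC, and Aire mTEC-like cells 22.5% and 50.8% of Tnfrsf11a.

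In mesenchymal cells Tnfrsf11b and Cd40 differed in opposite directions. Tnfrsf11b was at 23.4 CPM from 120 UMIs in 230 cells of ORFTOC and 2.65 CPM from 3 UMIs in 63 cells of FTOC (log2 ratio 3.15, 1.57 to 5.45). A single cell held 43 of the 120 UMIs, and 29 of the 230 cells had any. Mesenchyme held 37.7% of all Tnfrsf11b UMIs in ORFTOC and 1.46% in FTOC. Cd40 had 6 UMIs (1.17 CPM) and 13 UMIs (11.5 CPM), a log2 ratio of -3.29 (-4.97 to -1.79), and for Ltbr the interval held 0 (-0.20, -0.49 to 0.10). Mesenchymal Tnfsf11 was at 16.8 CPM and 11.5 CPM (0.55, -0.30 to 1.52). Since ORFTOC mesenchyme includes MEFs, origin and pool cannot be told apart. In immune cells the receptor genes were higher in ORFTOC, with log2 ratios of 1.63 (1.29 to 1.996) for Tnfrsf11a, 1.83 (1.38 to 2.31) for Cd40 and 1.16 (0.80 to 1.53) for Ltbr. Within ILC3-like cells Tnfrsf11a was at 0.06 (-0.42 to 0.56), Cd40 at 1.08 (-0.16 to 2.61) and Ltbr at 0.23 (-0.59 to 1.13). Macrophage or monocyte-like cells were 135 in ORFTOC and 43 in FTOC. Within them Tnfrsf11a was at 0.57 (-0.09 to 1.29), Cd40 at -0.14 (-0.66 to 0.42) and Ltbr at 0.18 (-0.37 to 0.77). Dendritic-like cells held 46 UMIs of Cd40 in 25 cells of ORFTOC and 0 in 4 cells of FTOC.

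Ltb was also counted in epithelial cells, at 49.6 CPM in ORFTOC and 20.5 CPM in FTOC (log2 ratio 1.28, 1.07 to 1.49). The highest class was Aire mTEC-like cells (88.2 CPM, with 117 CPM in ORFTOC and 70.4 CPM in FTOC), and 61.7% of the UMIs lay in Ccl21a mTEC-like cells. Cluster 1 of that class held it at 91.8 CPM in ORFTOC and 29.9 CPM in FTOC (1.62, 1.33 to 1.91), while cluster 5 had 10 UMIs in 216 cells and cTEC-like cells were at 6.52 CPM. In cluster 1 the UMIs lay in few cells: 135 of 733 had any, the tenth with the most held 90.2%, and a single cell held 67. All 135 also had an Epcam UMI, as did 591 of the 598 cells without an Ltb UMI.

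Immune markers moved with it. The summed level of 6 immune markers (Ptprc, Cd3e, Lck, Coro1a, Laptm5 and Rac2) was 481 CPM in the cluster 1 cells with an Ltb UMI and 58.6 CPM in those without, and 30 of the 135 against 22 of the 598 had a TRB chain. The cells with an Ltb UMI were also deeper, with a median of 16414 UMIs against 12581. In the whole cluster the summed markers were at 159 CPM in ORFTOC and 155 CPM in FTOC. For each immune marker UMI, cluster 1 held 0.421 Ltb UMIs, immune cells 0.124 and free RNA 0.0928. The 508 cells of the cluster with no UMI of these markers held Ltb at 34.5 CPM, 49.4 CPM in ORFTOC and 14.8 CPM in FTOC. Cluster 1 held 7 UMIs of Lta and 671 of Ltb, or 1.04 Lta UMIs per 100 of Ltb. The value was 1.76 in mature single-positive-like, 2.01 in double-positive-like and 2.07 in cytotoxic or NK-like cells. It was 15.7 in free RNA and 48.3 in ILC3-like cells. Free RNA was estimated from these markers at 9.08% of the UMIs of epithelial cells in ORFTOC and 9.44% in FTOC. Aire mTEC-like cells gave 1134 of the 4035 marker UMIs in epithelial cells, so these shares partly reflect that class. In Aire mTEC-like cells the markers stood at 538 CPM, mostly Laptm5 (248 CPM) and Rac2 (198 CPM) with Ptprc at 10.4 CPM. The part of immune RNA in the epithelial Ltb was not tested.

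**Figure D5:**
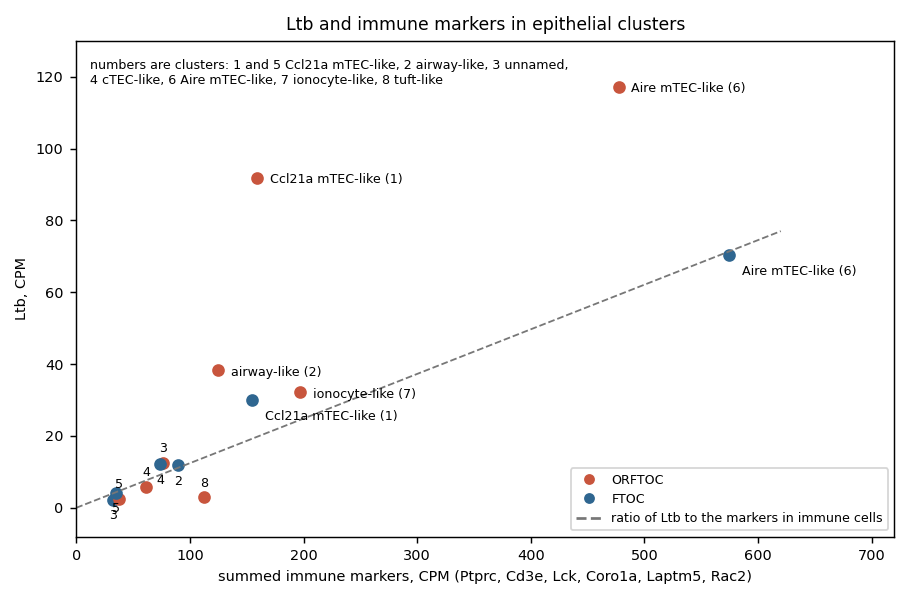
Ltb level against the summed level of 6 immune markers in the epithelial clusters of each pool with at least 20 cells, both in CPM. The dashed line is the ratio of Ltb to these markers in immune cells; cluster 1 lies at 91.8 CPM of Ltb in ORFTOC and 29.9 CPM in FTOC at nearly the same marker level.

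The genes were then read against all genes with at least 5 CPM over both pools. In epithelial cells 10932 genes passed, of which 3.63% were at least 2-fold higher in ORFTOC and 2.35% at least 2-fold lower. Of the 8 genes 5 passed, and 1, Ltb, was at least 2-fold higher and 0 lower, with a median log2 ratio of 0.04 against 0.01 over all genes. In immune cells 9814 genes passed, with 3.66% higher and 1.42% lower. Of the 8 genes 6 passed, and Tnfrsf11a, Cd40 and Ltbr were higher and 0 lower, with a median of 1.06 against -0.06. These 3 are the receptor genes whose UMIs came mainly from macrophage or monocyte-like and ILC3-like cells, which were 4.83% and 16.2% of immune cells in ORFTOC and 1.38% and 4.04% in FTOC. For Cd40, dendritic-like and ILC3-like cells each held 46 of the 279 UMIs.

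The rest of the pathway was 63 further genes in 6 lists. In epithelial cells 46 passed, 3 higher and 4 lower in ORFTOC, both of them larger shares than the 3.63% and 2.35% of all genes, with a median log2 ratio of 0.16. All 5 NF-κB subunit genes and all 8 NF-κB inhibitor genes lay within 2-fold, as did 12 of 13 adaptor and kinase genes, Traf5 being the exception at -1.06. Of 12 TNF receptor genes that passed, 2 were higher and 2 lower. Tnfrsf12a, the TWEAK receptor gene, was at 46.7 CPM and 18.3 CPM (log2 ratio 1.35) and was highest in airway-like cells. Tnfrsf18, the gene for GITR, was at 22.7 CPM and 91.7 CPM (-2.02), and Ngfr, the low-affinity neurotrophin receptor gene, at 25.8 CPM and 67.8 CPM (-1.39), both highest among epithelial classes in cluster 3. Cluster 3 was 47 cells of ORFTOC and 280 of FTOC. Of 4 ligand genes that passed, Cd70 was lower in ORFTOC (-1.21). Among 4 stroma target genes, Ccl19, a chemokine that attracts CCR7-bearing cells, was at 1121 CPM and 406 CPM (1.47). It was higher in mesenchymal cells (3671 CPM) than in Ccl21a mTEC-like (1332 CPM) or cTEC-like cells (1249 CPM).

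In immune cells 46 of the 63 passed, 2 higher and 0 lower, with a median of 0.14. Both were ligand genes, Tnf at 26.3 CPM and 13.0 CPM (1.02, 0.78 to 1.26) and Tnfsf12, the TWEAK gene, at 14.6 CPM and 4.35 CPM (1.75). Tnf, the neighbour of both lymphotoxin genes on chromosome 17, was highest in macrophage or monocyte-like cells (129.8 CPM) and was at 45.7 CPM in ILC2-like and 44.8 CPM in ILC3-like cells, an order unlike that of Lta. The 10 receptor, 13 adaptor and kinase, 5 subunit, 8 inhibitor and 3 stroma target genes that passed all lay within 2-fold. Relb and Nfkb2, the genes of the noncanonical NF-κB pair that RANK and the lymphotoxin β receptor engage, were highest among epithelial classes in Aire mTEC-like cells, at 265 CPM and 213 CPM, and higher still in dendritic-like cells, at 551 CPM and 254 CPM. Traf6 was also highest there among epithelial classes (36.0 CPM). Map3k14 was instead highest in cTEC-like cells (30.3 CPM, against 23.7 CPM in Aire mTEC-like cells). Rel was at 18.5 CPM in Aire mTEC-like, 23.7 CPM in airway-like and 24.3 CPM in ionocyte-like cells.

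The genes with the most similar pattern were sought over 36 sums of a class in a pool, by Pearson's r of log2(CPM + 10) among 8417 genes. Tnfsf11 and Lta had the same 3 nearest genes, Podnl1 (r of 0.94 and 0.92), Pdcd1 (0.91 and 0.89) and Gm17745 (0.91 and 0.89). Their own r was 0.89. Cd40lg was nearest to Gm8369 (0.86), BE692007 (0.84) and Ly6c1 (0.79), and Ltb to Rinl (0.95) and Cd37 (0.94). Tnfrsf11a was nearest to Cd40 (0.90), then Casp1 (0.86) and Shtn1 (0.86). Cd40 was nearest to Il4i1 (0.92), Casp1 (0.90) and Tnfrsf11a (0.90), Tnfrsf11b to Stra6 (0.94), Skint2 (0.93) and Sh3tc2 (0.92), and Ltbr to Tmem205 (0.98), Rgmb (0.95) and Bag3 (0.95). The 36 sums share a library and 2 pools of cells, and these values are descriptions.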

How the data were processed

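Gene expression, TCR and hashtag libraries of 1 lane were made by the authors with a droplet 5′ kit and, per the submitters' processing notes, Cell Ranger 6.1.2, Seurat 4.2.0 and mm10. The matrix header named another major version. The deposited values were unfiltered UMI counts, with hashtag counts in the same matrix, and the deposited contig list gave counts of UMIs per TCR contig.

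Cells with at least 600 genes and 0.4 to 10% mitochondrial UMIs were kept, assigned with HTODemux (quantile 0.99, Seurat 5.3.0), cleared of doublets within a pool by a reimplemented neighbour rule (50 neighbours, 50 principal components) and clustered after SCTransform (sctransform 0.4.2) with cell cycle regression, 18 components and resolution 0.4 (immune cells 1), without 71 member and pathway genes among 3000 variable genes. Of 705161 barcodes, 10910 had 600 genes, 10245 passed the mitochondrial limits and 8983 were single cells. Of these, 591 doublets were removed. The UMIs of a gene summed over the cells considered set the precision of its level. Clusters were named where at least 3 class markers were found in 10% of cells, 1 was among the 10 leading genes and the score led by 0.25. CPM carry exact Poisson intervals, shares Clopper-Pearson intervals and ratios exact conditional binomial intervals, all at 95%. Where 0 cells had a UMI, the limit given for the share is instead 3 divided by the number of cells. A count of 0 was set to 3 UMIs in a ratio, and no ratio is given where both counts were at most 3. Each pool was 1 sample, so no test was made. The ratio procedure was tested on simulated data.

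Named genes were the 8 members, pathway genes at least 2-fold apart with 20 CPM in the higher pool, and the 3 genes most like each member among genes with 50 CPM in a sum, of which some are not reported here. Tnfsf12, Cd70, Traf5, Relb, Nfkb2, Traf6, Map3k14 and Rel, and the leading genes of clusters, were added after their values were seen. The members and lists were chosen with earlier results of these data known. Alternatives changed assignment, filters, clustering, scaling (TMM, edgeR 4.0.16), weights, ambient RNA and class shares. Clustering used R 4.3.3. Sums and intervals used Python 3.11.15 with scipy 1.17.1, pandas 2.3.3 and numpy 2.4.6, and figures matplotlib 3.10.9.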

Additional observations from a re-analysis of the deposited data

How the results depend on the processing

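No paired analysis was possible because each pool was 1 sample, and leaving out a replicate was not possible for the same reason. Of 169 alternatives, 126 kept the value within its counting interval, 39 moved it beyond and 4 reversed a value whose interval lay on 1 side of 0. Values of Tnfsf11, Tnfrsf11a and Cd40, whose intervals held 0, also changed sign under some settings. The causes were not tested except where the construction shows them. The moves below are log2 ratios. With every cell weighted equally, Tnfsf11 was at 0.73, Cd40lg at -0.50, Lta at 1.67, Tnfrsf11a at 0.27 and Cd40 at 0.24, and Ltb (0.34) and Tnfrsf11b (0.042) were reversed. TMM scaling reversed Ltb (0.034). With hashtags assigned by a ratio of counts, Ltb was at -0.16, Lta at 0.73, Tnfrsf11a at -0.33, Tnfrsf11b at -1.002 and Cd40 at -0.51, and with doublets kept Ltb was at -0.10. Without cells holding a marker of another compartment, Tnfrsf11a was at 0.23 and Cd40 at 0.64, and Tnfrsf11b (2.05) was reversed. This step took out most Aire mTEC-like cells. With equal class shares, Tnfsf11 was at -0.49, Lta at 0.0090, Tnfrsf11a at 0.42, Tnfrsf11b at -0.0098, Cd40 at 0.12 and Ltbr at 0.10.

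After log-normalisation, Aire mTEC-like cells (82 cells) held Tnfrsf11a at 264 CPM, Tnfrsf11b at 159 CPM and Cd40 at 244 CPM, cTEC-like cells (672 cells) held Ltbr at 116 CPM, and mature single-positive-like cells (470 cells) held Cd40lg at 19.98 CPM. With the members kept for clustering the last was 16.4 CPM. Without cell cycle regression the highest class of Tnfrsf11a, Tnfrsf11b and Cd40 was named cycling TEC-like (117 cells). Without the filter, 6 pathway genes were higher in epithelial cells, 5 higher and 1 lower in immune cells. At 20 CPM, 2 were lower in epithelial and 1 higher in immune cells. No share over all genes at these 2 filters stands beside these counts, and they are not read as a result. Thinned to 1000 UMIs, which leaves fewer UMIs by construction, 16.9% of ILC3-like cells had a Tnfsf11 UMI and 19.8% of Aire mTEC-like cells a Tnfrsf11a UMI. Cd40lg had 96 UMIs in all cells, which limits its ratios by depth.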
